A study of Homo sapiens with 4 samples.

Results

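SKI and HIPK1 are 2 of the 117 gene symbols assigned to overlapping peaks of both replicates in an iCLIP experiment on MARF1, a cytoplasmic endoribonuclease. They were selected on measured values, namely the peaks themselves. Every interval that the authors' final list assigns to SKI or HIPK1 was taken, and with it every peak of either replicate that overlaps the body of these genes. This gave 7 of the 282 intervals of the final list, 3 in SKI and 4 in HIPK1, together with 9 of the 719 peaks of replicate 1 and 7 of the 534 peaks of replicate 2. Among the 20136 protein-coding genes, 0.571% had a shared interval, 1.94% a peak in replicate 1 and 1.23% a peak in replicate 2. Since the peaks chose the genes, their enrichments and q-values are given as a description, without a test.

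The cells were HEK293-Trex, a human embryonic kidney line made for inducible expression. In 2 biological replicates they expressed F-MARF1ΔNYN, a FLAG-tagged MARF1 without its nuclease (NYN) domain as the study's methods describe it, stably integrated and induced with doxycycline at 100 ng/mL for 12 hr. The 2 control libraries came from HEK293-Trex cells without a FLAG-tagged protein, and the sources used here do not state whether these received doxycycline. The sample records call the tagged protein MARF1-NYN and do not mention the deletion. Both groups were irradiated with UV light of 254 nm at 400 mJ per square centimetre, and RNA crosslinked to protein was recovered with a FLAG antibody. The expressed protein was an inactive form driven by an inducible transgene, so the peaks describe where it was recovered on RNA and not what the active nuclease does there.

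SKI is a nuclear corepressor. It binds the SMAD proteins that carry TGF-beta signals into the nucleus and recruits the NCOR and histone deacetylase machinery, which keeps SMAD target genes off. HIPK1 is a nuclear serine/threonine kinase of the homeodomain-interacting family, related to the DYRK kinases, and acts on p53 partners, DAXX and homeodomain transcription factors.

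All peaks of both genes lay in the 3'UTR, in the last exon, which was the usual place in the final list (187 of 282 intervals, 66.3%, by the authors' annotation). SKI (ENSG00000157933) spans chr1:2158827-2241652 of hg19 (GRCh37) on the plus strand, and its 3'UTR, chr1:2238202-2241652, is 3451 bases long. HIPK1 (ENSG00000163349) lies at chr1:114471946-114520491, also on the plus strand, with a 3'UTR of 4360 bases at chr1:114516132-114520491. The peaks carry no strand, but 0 other annotated genes overlap either 3'UTR on either strand. Intervals are numbered here from the stop codon onwards. The 30 bases around the replicate 2 summit of each interval are printed. A summit is where reads, extended to 100 bp by the peak caller, overlapped most within a peak of that replicate. Capitals mark a summit base: that of replicate 2 in every line, and in HIPK1 interval 3 also that of replicate 1, which is the neighbouring base. In HIPK1 interval 4 both summits fell on the same base. The replicate 2 summit of SKI interval 2 lies in its peak but beyond the end of the short interval, so that line holds none of the interval itself. All are on the plus strand of hg19.
SKI interval 1 (chr1:2240174-2240203): tgccccatccccaggGccgccaggcttgct
SKI replicate 2 peak of interval 2 (chr1:2240365-2240394): ggcagcccttccccaCttcggctctgggag
SKI interval 3 (chr1:2240728-2240757): tgattgtgtattcagTttaattctcattat
HIPK1 interval 1 (chr1:114518484-114518513): aagtagaaggtactgGggatggggacattc
HIPK1 interval 2 (chr1:114518684-114518713): ccagctctgtaccagGttgaacaccgagga
HIPK1 interval 3 (chr1:114518953-114518982): aagcacattctgatTTtcttgttggaacac
HIPK1 interval 4 (chr1:114519948-114519977): tgaaaaataatctcaCtacatgtagcagta

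At the replicate 2 summits, the SKI sites of intervals 1 and 2 held 22 and 21 G and C among 30 bases and that of interval 3 held 7. At the replicate 1 summits, the SKI peak of intervals 1 and 2 held 20 and that of interval 3 held 19, so the low value of interval 3 was seen at its replicate 2 summit only. The HIPK1 sites held 15, 17, 11 and 9 such bases at the replicate 2 summits, in order from the stop codon, and from 9 to 15 at the 7 replicate 1 summits.

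The authors' peak caller gives, for each peak, a fold enrichment, which is the ratio of the reads at the summit to a local background, and a q-value against the control library that carries its number. The reads themselves were solved from these values, and the control is given as the largest number of reads in 100 bp that the background allows. A value of 0 does not exclude control reads farther off. Over 1 kb, the same background allowed at most 9 to 20 control reads at the SKI peaks and 3 to 10 at the HIPK1 peaks. Across the final list the fold enrichment had a median of 7.33 in replicate 1 and 8.41 in replicate 2, with a median of 12 and 15 reads at the summit. There is 1 value per replicate, so the spread is that between both values. MARF1 itself held 21 and 20 peaks, 18 intervals being shared, which the final list names KIAA0430 (12) and C16orf45 (6). RNA of the transgene and the cells' own MARF1 mRNA cannot be told apart there.

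SKI carried 2 peaks in replicate 1 and 3 in replicate 2, and all 5 took part in an interval. Interval 1 of SKI (chr1:2240111-2240210) had a fold enrichment of 9.02 in replicate 1 (q = 4.96e-11) and 6.35 in replicate 2 (q = 7.30e-08). There were 16 and 19 reads at the summits, over at most 1 and 2 control reads. Interval 1 thus had the most reads of the SKI intervals in replicate 2 and at the same time the lowest fold enrichment there, with a scaled local background of 2.0, the highest of the 3.

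Interval 2 (chr1:2240317-2240325) was only 9 bp long. It joined the far end of the same replicate 1 peak to a separate replicate 2 peak, with a fold enrichment of 7.03 (q = 1.47e-06) and 13 reads over 0 control reads. The replicate 1 summit, 2098 bases from the stop codon, lay between the replicate 2 summits at 1988 and 2179 and inside neither of those peaks. Replicate 1 therefore had 1 called peak, of 222 bp, where replicate 2 had a pair of them, and intervals 1 and 2 share their replicate 1 values.

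Interval 3 of SKI (chr1:2240663-2240755) was the one in which each summit lay inside the other replicate's peak, 49 bp apart. Its fold enrichment was 6.62 in replicate 1 (q = 3.87e-06) and 7.63 in replicate 2 (q = 3.67e-08), with 12 and 15 reads over at most 1 control read in each. It was also the only interval of either gene with the higher enrichment in replicate 2.

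HIPK1 carried 7 peaks in replicate 1 and 4 in replicate 2. Of the 7 peaks, 2 took part in an interval, and 5 were found in replicate 1 alone, whereas all 4 replicate 2 peaks were shared. Intervals 1 to 3 rest on a single replicate 1 peak of 550 bp (chr1:114518492-114519041), with a fold enrichment of 11.1 (q = 3.18e-14) and 13 reads over 0 control reads. In the whole final list, 22 replicate 1 peaks covered at least 2 replicate 2 peaks, and 2 covered at least 3, this one among them.

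Within that peak, replicate 2 had fold enrichments of 8.27 at interval 1 (chr1:114518492-114518623, q = 3.78e-08), 6.68 at interval 2 (chr1:114518669-114518773, q = 4.45e-06) and 7.29 at interval 3 (chr1:114518909-114519041, q = 3.93e-06). The reads at these summits were 12, 13 and 9, over at most 0, 1 and 0 control reads. The replicate 1 summit was 468 bp from that of interval 1 and 268 bp from that of interval 2, but 1 bp from that of interval 3. Of these 3 intervals, the summits were closest at the one with the fewest replicate 2 reads.

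Interval 4 of HIPK1 (chr1:114519892-114520020) had its summit on the same base, 114519963, in both replicates. The fold enrichment was 7.68 in replicate 1 (q = 1.79e-07) and 6.68 in replicate 2 (q = 4.45e-06), with 11 and 13 reads over at most 0 and 1 control reads. Summits fell on the same base in 5 of the 282 intervals (1.77%) and within 10 bp in 58 (20.6%).

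**Figure D1:**
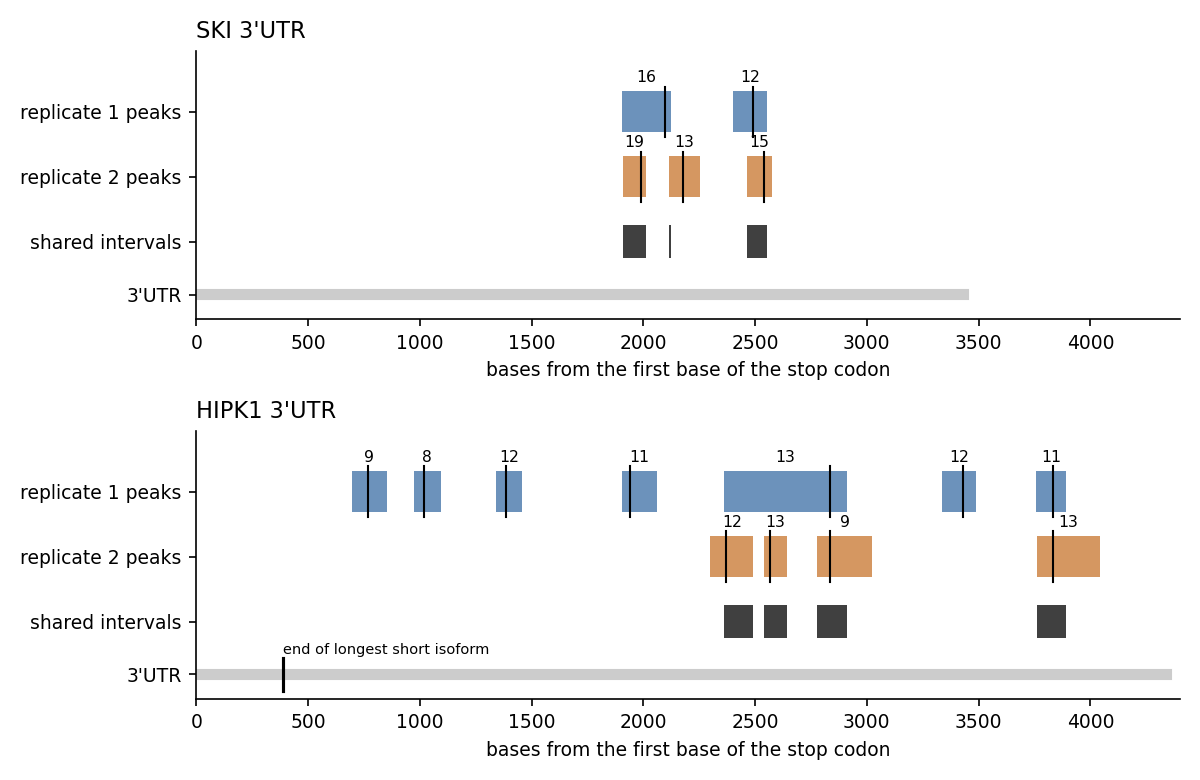
Peaks along the SKI and HIPK1 3'UTRs, in bases from the first base of the stop codon, with replicate 1 in blue, replicate 2 in orange and shared intervals in dark grey. Black ticks are summits, numbers are the reads solved at them, and the mark on the HIPK1 3'UTR is the end of the longest short isoform, at 388 bases; the HIPK1 peaks without a partner are all in replicate 1.

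The 5 HIPK1 peaks of replicate 1 alone had fold enrichments from 6.81 to 9.84 and from 8 to 12 reads. The highest of them, between intervals 3 and 4, reached 9.84 (q = 1.74e-11, 12 reads over 0 control reads) and lay 273 bp from the nearest replicate 2 peak. Its enrichment exceeded that of the replicate 1 peak behind interval 4, which was shared. The other 4 lay nearer the stop codon than interval 1, with summits at 767, 1021, 1386 and 1940 bases, and from 238 to 1447 bp from a replicate 2 peak. The files list no values outside peaks, so the reads of replicate 2 at these places are unknown.

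Every peak of both genes was well inside the limit of q = 0.05. The weakest replicate 1 member was a HIPK1 peak at q = 6.60e-06, and the weakest in replicate 2 was in HIPK1 as well, at q = 4.45e-06. Of all peaks, 53.7% in replicate 1 and only 30.7% in replicate 2 had a higher q than that member. The lists themselves ran up to q = 0.0489 and 0.0433, and peaks beyond the limit are not in them. The nearest peak outside the gene body was 2473516 bp away for SKI and 5934265 bp away for HIPK1 in replicate 1. In replicate 2 it was 4410307 and 5934157 bp away. Such distances were not computed for the other genes of the lists, so they do not set SKI and HIPK1 apart.

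Between replicates, the direction of the difference was the reverse of that in the rest of the list for most of these intervals. The log2 fold enrichment of replicate 2 minus replicate 1 was -0.51, -0.36 and 0.21 in SKI and -0.43, -0.74, -0.61 and -0.20 in HIPK1. Over the other 275 intervals the median was 0.21, and 88 of them (32.0%) were lower in replicate 2. SKI had 2 of 3 lower and HIPK1 4 of 4, but intervals 1 and 2 of SKI and 1 to 3 of HIPK1 each repeat 1 replicate 1 value, so that these are not separate observations.

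**Figure D2:**
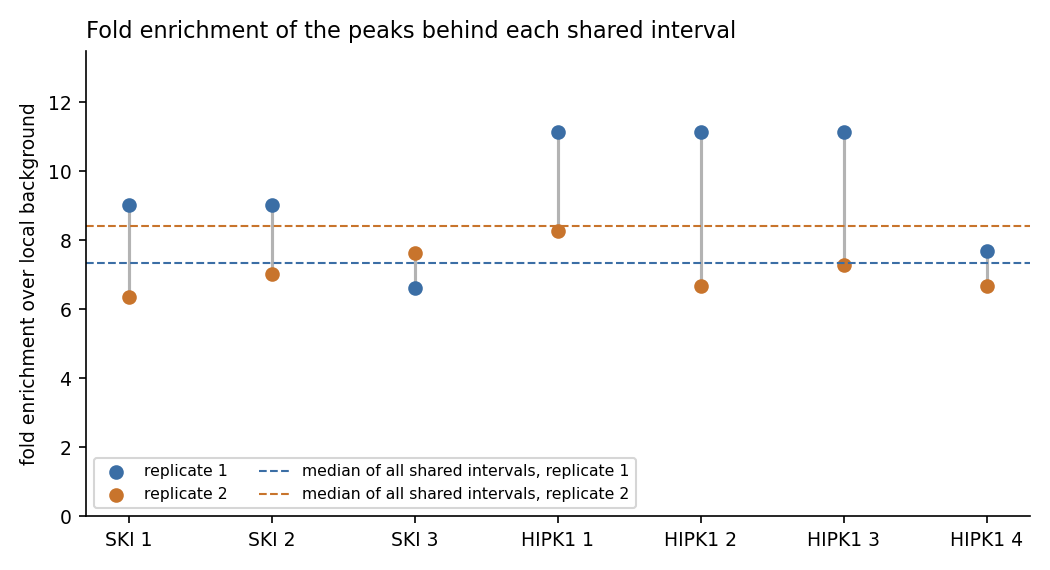
Fold enrichment over the local background (vertical axis) of the peaks behind each shared interval, replicate 1 in blue and replicate 2 in orange, 1 value per replicate. Dashed lines are the medians of all 282 intervals, 7.33 and 8.41; all 7 replicate 2 values lie under the replicate 2 median.

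In the order of the list, HIPK1 was in the upper part or near the middle. SKI ranged from the upper part to below the middle, depending on the measure. Each interval was given the lower of its fold enrichments in both replicates, and genes were ordered by the highest such value among their intervals. HIPK1 (8.27) was 37th and SKI (7.03) 62nd of 117 genes. Genes here are symbols of the final list, so KIAA0430 and C16orf45, which both name MARF1 intervals, count separately. By the highest fold enrichment of each replicate alone, HIPK1 was 21st in replicate 1 and 61st in replicate 2, while SKI was 39th and 78th. The median log2 fold enrichment of the intervals was 2.92 in SKI and 3.14 in HIPK1 as called, and 3.83 and 3.61 over the lowest background of each list. In both settings the genes differed by less than the spread between replicates as called (SD 0.25 in SKI and 0.48 in HIPK1), so their order is not settled. That spread comes from the single-replicate medians, in which the repeated replicate 1 values count more than once. No spread was computed over the lowest background. Single intervals ranked from 70th (HIPK1 interval 1) to 171st (SKI interval 1) of 282 by their lower value. These lower values ran from 6.35 to 8.27, a span of 1.92. The replicates differed by more than that at 5 of the 7 intervals. Of those 5, SKI intervals 1 and 2 share 1 replicate 1 value and HIPK1 intervals 1 to 3 another, so they are not separate observations. At all of them but HIPK1 interval 3, the replicate 1 summit lay outside the replicate 2 peak, so the difference compares unlike places. The order of the intervals is not settled. In number of intervals the genes stood higher: 30 genes (25.6%) had at least 3 and 19 genes (16.2%) at least 4. These numbers depend on how coverage was split into peaks: counting each replicate 1 peak with an interval once, an alternative chosen after seeing the data, gave 2 in each gene, and a reciprocal overlap of 50% left 1 in SKI and 0 in HIPK1.

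The genes nearest to SKI in the highest fold enrichment of each replicate were RP11-68I3.2, CPSF7 and NRARP, at Euclidean distances of 0.076, 0.107 and 0.146 on the log2 scale. CPSF7 is a subunit of a pre-mRNA cleavage factor, and NRARP an intracellular regulator of Notch signalling. For HIPK1, the nearest were RB1, the retinoblastoma tumour suppressor, and PGAM1, a glycolytic enzyme with a near-identical copy in the genome, at 0.118 and 0.130. The distances rest on 2 values per gene, and likeness in them says nothing of shared control.

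**Figure D3:**
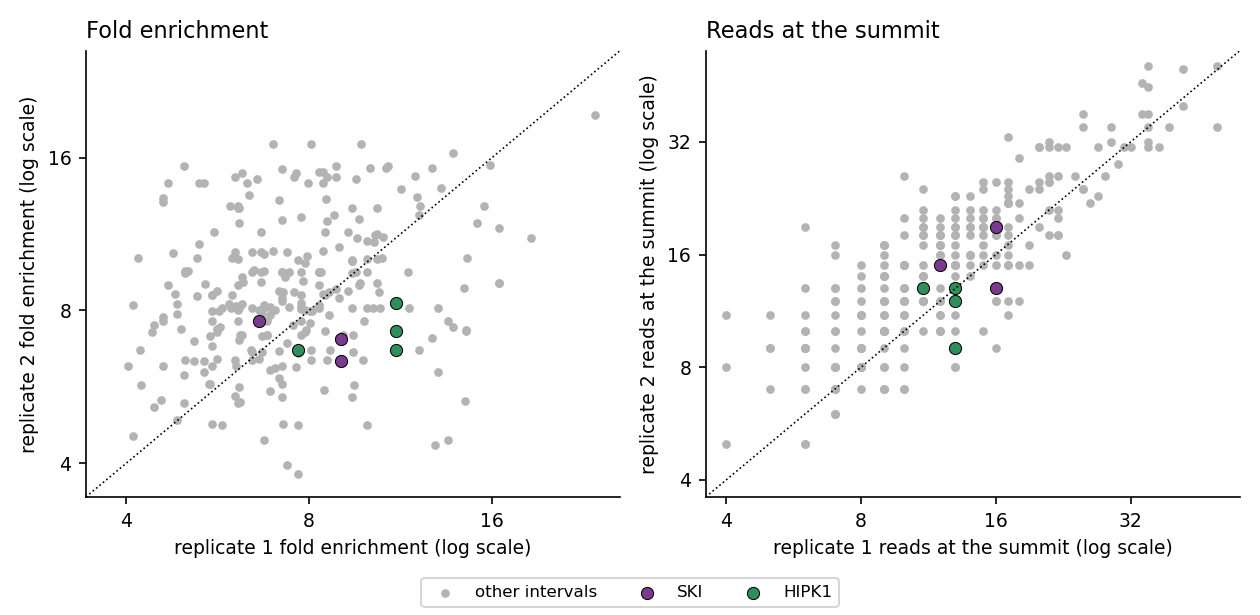
Replicate 2 against replicate 1 for all 282 shared intervals, as fold enrichment (left) and reads at the summit (right), both on log axes, with the dotted line at equal values. The 3 SKI (purple) and 4 HIPK1 (green) intervals lie within the cloud of other intervals in both panels; 1 SKI interval is above the line for fold enrichment.

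The intervals had positions in common that the choice of genes did not use. In both genes they all lay beyond the middle of the 3'UTR, at 56.8, 61.4 and 72.7% of its length in SKI and at 55.6, 59.4, 65.2 and 87.7% in HIPK1. Of the 234 other intervals that lie in an annotated 3'UTR, 139 (59.4%) were beyond the middle. The nearest interval to the stop codon thus began 1910 bases from it in SKI and 2361 bases in HIPK1. Of the 7 replicate 1 peaks of HIPK1, however, 4 had their summit before the middle, at 17.6 to 44.5%, and the first began at 698 bases. The 7 intervals rest on 4 replicate 1 peaks, so their positions are not 7 separate observations.

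HIPK1 also has annotated isoforms with a short 3'UTR. Of 9 annotated HIPK1 transcripts with a 3'UTR, 3 share the stop codon of the long form but end after 62 to 388 bases, and all peaks of both replicates began beyond that end. The 4 intervals began between 1973 and 3373 bases beyond it. SKI has 1 annotated coding transcript with a 3'UTR.

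Neither 3'UTR was unusually long for the list. The 106 genes with an interval in an annotated 3'UTR had a median length of 3612 bases, 60 of them longer than SKI and 39 longer than HIPK1. Per kilobase, SKI held 0.869 intervals and HIPK1 0.917, against a median of 0.516 over these genes. Of the 106 genes, 30 had a higher density than SKI and 27 a higher one than HIPK1. Such densities rest on the interval counts, which depend on how coverage was split into peaks. Replicate 1 peaks covered 10.9% of the SKI and 31.8% of the HIPK1 3'UTR, and replicate 2 peaks covered 10.3 and 19.0%. Shared intervals made up 5.85 and 11.4%. The wide HIPK1 coverage in replicate 1 comes from its 5 unshared peaks and the 550 bp peak.

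Base composition was higher in G and C in SKI than in HIPK1, with an overlap. In windows of 101 bases around the middle of each interval, G and C made up 63.4, 64.4 and 47.5% in SKI and 31.7, 51.5, 35.6 and 26.7% in HIPK1. The median over all 241 windows in 3'UTRs was 43.6%, with the middle 50% of them between 37.6 and 53.5%. SKI interval 2 was at or above 96.3% of all windows, and HIPK1 interval 4 had a share reached or undercut by only 4.15%. The whole 3'UTRs differed in the same direction, with 53.6% in SKI and 37.4% in HIPK1.

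Within its own 3'UTR, SKI interval 1 was at or above 67.9% of windows in G and C, interval 2 at or above 69.6% and interval 3 at or above 41.4%. For HIPK1 the shares were 28.4, 95.8, 46.9 and 9.62%. Intervals of HIPK1 thus lay at both ends of the composition of that 3'UTR, interval 2 in one of its most G- and C-rich stretches and interval 4 in one of its poorest.

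Predicted folding energies, where lower means a more stable structure, were -35.5, -25.8 and -27.0 kcal/mol for the SKI windows and -14.9, -31.7, -14.9 and -19.1 kcal/mol for HIPK1. The median over all windows was -22.5 kcal/mol. Only HIPK1 interval 2 was near the extreme of its own 3'UTR, where 5.40% of windows had an energy as low or lower. For the other 6 intervals the share ran from 19.3 to 69.2%. The most stable window of the SKI 3'UTR, at -57.0 kcal/mol, spanned bases 2321 to 2421 from the stop codon, between intervals 2 and 3, and reached into the replicate 1 peak that begins at base 2401.

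**Figure D4:**
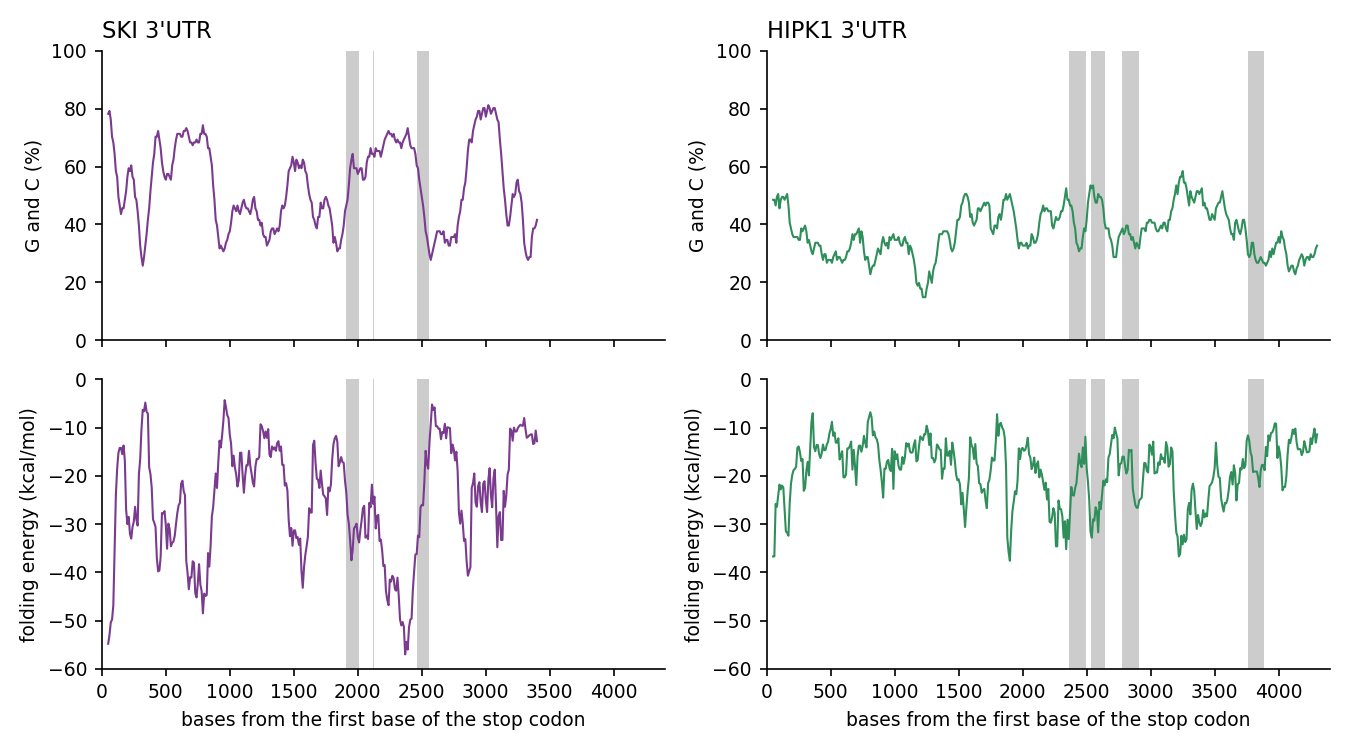
Share of G and C (top, percent) and predicted folding energy (bottom, kcal/mol) in windows of 101 bases along the SKI and HIPK1 3'UTRs, against bases from the first base of the stop codon, with shared intervals in grey. The intervals sit in stretches of high and low G and C alike, from 64.4% at SKI interval 2 to 26.7% at HIPK1 interval 4.

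Short motifs were searched on the transcript strand of the same windows. The AU-rich element core ATTTA was in 0 of the 7 windows and in 33 of all 241 (13.7%), the Pumilio motif TGTANATA in 0 and in 4 (1.66%), and the polyadenylation signal AATAAA in 0 and in 13 (5.39%). Runs of U, searched as TTTTT, occurred in HIPK1 interval 3 alone, and in 41 of all windows (17.0%). GGGG was found in SKI interval 3 and HIPK1 intervals 1 and 2 (64 of 241, 26.6%), and CCCC in SKI intervals 1 and 2 (71 of 241, 29.5%, and 57.4% of all windows of the SKI 3'UTR). No motif was therefore present in most windows of both genes, and absence from a window says only that these letters are not in it.

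Both 3'UTRs do hold such motifs elsewhere. ATTTA occurs 11 times in the SKI and 9 times in the HIPK1 3'UTR, and TTTTT starts at 32 and 49 places. Any window of the HIPK1 3'UTR held TTTTT in 40.1% of cases, and any window of the SKI 3'UTR in 37.2%. The longest run of bases shared by a SKI and a HIPK1 window was 8 bases (cattatat), between SKI interval 3 and HIPK1 interval 4. It was found in 2 of the 241 windows, the same ones, where it must occur because it was picked from them. How often such a run arises by chance was not computed. Between the other pairs the longest run was from 5 to 7 bases.

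Peak sequences were compared with the whole genome for copies that could share reads. At 95% identity over at least 50 bases, 0 other places matched any of the 16 peaks. Longer but less alike matches reached 77 bases for both peaks of HIPK1 interval 4 and 52 bases for another HIPK1 peak, and reads shorter than 50 bases were not covered by this search.

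Of the other 25 genes of TGF-beta and SMAD corepression, 0 had a shared interval and 0 a peak in replicate 1, and 1 had peaks in replicate 2. The shares over all protein-coding genes were 0.571, 1.94 and 1.23%. That gene was SMAD7, the inhibitory SMAD, with 2 peaks in its 3'UTR, at fold enrichments of 5.59 (q = 0.00228, 6 reads) and 6.96 (q = 1.51e-06, 7 reads).

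Among the other 22 genes of the HIPK and DYRK families and their partners, 1 had a shared interval (4.55%), 3 a peak in replicate 1 (13.6%) and 1 a peak in replicate 2 (4.55%), beside 0.571, 1.94 and 1.23% of all protein-coding genes. The difference was not tested. The shared one was HIPK2, the closest relative of HIPK1. Its interval (chr7:139247416-139247470, 55 bp) had a fold enrichment of 7.13 in replicate 1 (q = 2.19e-06, 9 reads) and 8.76 in replicate 2 (q = 3.56e-09, 10 reads), with the summits 73 bp apart. The HIPK2 summits lay at 89.7 and 90.3% of a 3'UTR of 11360 bases, near the relative position of HIPK1 interval 4 but beyond that of the other 3 HIPK1 intervals. The sequences were not alike: 0 of the HIPK1 and SKI peaks had an alignment on the same strand of the HIPK2 3'UTR at an E-value limit of 0.001.

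HIPK2 had 2 more peaks in replicate 1 alone, with fold enrichments of 4.83 and 5.71, at 94.7 and 8.12% of the 3'UTR. The kinase DYRK2 had 1 replicate 1 peak in its 3'UTR, at a fold enrichment of 8.43 (q = 8.16e-09, 10 reads). The ubiquitin ligase SIAH1 had 1 replicate 1 peak (6.03, q = 3.33e-05, 6 reads) in a coding exon, where a gene on the opposite strand, LONP2, also has exons, and without strand the 2 cannot be told apart. HIPK3 and HIPK4 held no peak in either replicate.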

How the data were processed

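iCLIP libraries of 4 samples were used, 2 of F-MARF1ΔNYN and 2 of control cells. Per the submitters' processing notes, reads were trimmed with Trimmomatic 0.32, aligned to hg19 with STAR 2.3.0e, and freed of secondary alignments (SAMtools 1.9) and duplicates (Picard 2.10.7). Peaks were called with MACS2 2.1.1 for each replicate over its numbered control, without pooling, at an extension size of 100 bp and a q-value limit of 0.05, and the intersection was annotated with HOMER 4.10. For each peak the authors deposited a score, a fold enrichment (a ratio), −log10 values of p and q, and the offset of the summit. The files hold no values per library, so library totals are unknown; 0 per-sample columns remained unused.

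The reads at each summit are the whole number that gives both the Poisson p-value and the fold enrichment, with a pseudocount of 1 on reads and background, after the peak caller's scaling of the deeper library. A read of F-MARF1ΔNYN counted 1 in replicate 1 and 0.951 in replicate 2, and a control read 0.803 and 1. Reads are given unscaled, the background scaled. This step was tried on simulated data, whose values are not given here. Solutions were found for 719 of 719 and 534 of 534 peaks, with a median of 8 and 11 reads. Such numbers are small, which limits the precision of each fold enrichment. Gene models came from GENCODE release 44 on GRCh37, and its 3'UTRs include the stop codon. Windows of 101 bases were folded with ViennaRNA 2.7.2, copies were sought with blastn 2.17.0, and sequences were read with samtools 1.23.1 and pysam 0.24.0 in Python 3.11.15 (numpy 2.4.6, pandas 2.3.3, scipy 1.17.1, matplotlib 3.10.9). No statistical test was made. The genes named are SKI and HIPK1, the 3 nearest to each in log2 of the highest fold enrichment in both replicates, members of both pathway lists that hold a peak, and MARF1 to check the labels. Of the genes nearest to HIPK1, 1 is not reported here. Other genes (HIPK3, HIPK4, LONP2) were named after their values were seen. Members and lists were chosen with earlier results of these data known. Alternatives covered q-values, fold enrichment, overlap, annotation and single replicates.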

Additional observations from a re-analysis of the deposited data

How the results depend on the processing

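No paired analysis was possible because the comparison of a library with its numbered control is built into every peak list, and libraries have no values of their own. Of 32 alternatives, 25 kept a count within 1.5 times or a median within the spread between replicates, and 7 moved. That spread was taken from the single-replicate medians themselves, so their staying within it says little of stability. The counts of shared intervals, 3 in SKI and 4 in HIPK1, were unchanged at q below 0.01 or 0.001 in both peaks, at a fold enrichment of at least 4 and by GENCODE gene bodies. Every peak behind these intervals had already passed the q and fold limits, so those settings could not remove an interval. A reciprocal overlap of 50% left 1 interval in SKI and 0 in HIPK1, and requiring each summit inside the other replicate's peak left 1 and 2. With a single replicate, SKI had from 2 to 3 peaks and HIPK1 from 4 to 7. After seeing the data, counting each replicate 1 peak with an interval once was added, which gave 2 in each gene, and a minimum length of 20 bp, which left 2 in SKI and 4 in HIPK1. The median log2 fold enrichment was 2.92 in SKI and 3.14 in HIPK1, from 2.81 to 3.17 and from 2.80 to 3.48 with a single replicate. Over the lowest background of each list it was 3.83 in SKI, by construction, and 3.61 in HIPK1. All 7 intervals stayed in the 3'UTR under both GENCODE rules. With 9 to 19 reads at each summit, small differences between intervals were not detectable, and the number of intervals in a gene depends on how each replicate's coverage was split into peaks.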
